A study of Mus musculus with 240 samples.

Results

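The livers of 10 lean male B6 mice were compared at 2 ages, 5 mice at 10 weeks and 5 other mice at 4 weeks, out of 240 arrays from 6 tissues, 2 strains and 48 groups. The arrays were chosen by their titles alone, as all lean B6 liver arrays of both ages. B6 is the inbred strain C57BL/6 (written C56Bl/6 in the labels), bred in an in-house colony, and the lean mice stand in the study opposite mice carrying ob, a mutation of the leptin gene Lep. For the lean mice the labels give no genotype beyond the word lean. The labels say nothing of diet, fasting or time of death. Livers of 5 and 5 lean BTBR mice (a second inbred strain) and of 5 and 5 B6 mice carrying ob, at the same ages, served for comparison. All were male.

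Each array had 2 colours and set the liver RNA of 1 mouse against a pool of liver RNA from 20 B6 mice, or 19 BTBR mice for that strain. A value is therefore a log2 ratio to the pool, and the pool cancels when ages are compared within a strain. Levels of different genes cannot be compared, and the pool cannot show how abundant a transcript was. Differences are 10 minus 4 weeks on the log2 scale, where 1 is a ratio of 2, with the standard error of the fit (SE) after ±, n = 5 mice per age. "Rose" and "fell" refer to genes at a Benjamini-Hochberg adjusted p under 0.05 in limma over 19896 genes, fitted on all 40 liver arrays. Nothing in the labels says more of the replicates than that they are different mice.

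Directions below are the likely ones, since the labels leave it unstated whether mouse or pool is the numerator. The titles name the pool first and the mouse second, with Cy3 listed for the first channel and Cy5 for the second, and ratios are usually Cy5 over Cy3. In addition, log ratios of mice to a pool of their own kind average below 0 for variable probes when the mouse is the numerator. Averages were below 0 for 68.5% of the 200 most variable probes in the 20 B6 liver arrays. Some of these arrays opposed each other: over all probes the lowest correlation between 2 B6 liver arrays was -0.54, and 26 of 190 pairs were under -0.3. Among the 10 lean arrays the lowest was -0.21. Were the ratio to run the other way, all rises given here would be falls and all falls rises, 2247 genes being higher and 2064 lower.

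Between weaning age and adulthood the mouse liver stops growing. Hepatocytes leave the cell cycle, transcripts of late fetal and juvenile life fade, and the connective tissue matrix is laid down more slowly. At puberty the pituitary begins to release growth hormone in pulses in males and more steadily in females, and through the transcription factor STAT5B this pattern sets which steroid, drug and pheromone-carrier genes a liver expresses. Genes called male-biased or female-biased below are those known for a higher transcript level in adult mouse liver of that sex. All mice here were male, so no sex difference was measured.

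In lean B6 liver, transcripts of mitosis, DNA replication, extracellular matrix, cholesterol synthesis and the female-biased genes were lower at 10 weeks, and the male-biased genes were higher. In all, 4311 of 19896 genes (21.7%) passed the test, 2064 higher (10.4%) and 2247 lower (11.3%) at 10 weeks. Of these, 259 differed by 1 or more on the log2 scale, 104 up and 155 down. The median difference over all genes was 0.003. For 1884 genes (9.47%) the 5 values at one age did not overlap the 5 at the other. List counts below are to be read beside these shares over all genes: 10.4% higher, 11.3% lower and 9.47% without overlap. Simulated data with 200 changed genes gave back 91% of those changed 1.5-fold and 96% of those changed 2-fold in this comparison.

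Of the 4-week livers, those of mice 31 and 34 stood apart from the other three. Their arrays had median correlations of 0.36 and 0.37 with the 10-week arrays, against -0.15, 0.10 and 0.06 for mice 35, 45 and 47. With the other 4-week arrays the medians were 0.26 and 0.26, against 0.40, 0.37 and 0.46. Pairs of 10-week arrays correlated at 0.43 to 0.77. Both mice are labelled 4 weeks and are kept in that group throughout. Without them, an alternative chosen after these correlations were seen, 4929 genes passed, and 3680 of them were among the 4311. Counts without them are given with the lists below. The balance over all genes then leaned to the higher side, by 2516 to 2413. Both mice were singled out by their likeness to the 10-week arrays, so leaving them out tends to widen age differences. Values without them are therefore no added support for an age difference.

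The same 2 mice were also set apart in other organs by the 46 measured genes of mitosis and the G2 phase. In liver the median log2 ratio of that list was -0.45 and -0.42 in mice 31 and 34, against 1.60, 0.55 and 0.95 in mice 35, 45 and 47, and -1.10 to -0.82 at 10 weeks. In gastrocnemius, a calf muscle, it was -0.06 and 0.02 in mice 31 and 34, against 1.29, 0.67 and 0.79. In soleus it was -0.27 and -0.03 against 1.24, 0.81 and 0.87. In gonadal adipose tissue the values were -0.23 and -0.59 against 0.94, -0.05 and 0.20, while in islets mouse 45, at -0.25, lay between mice 31 and 34, at -0.07 and -0.40. The hypothalamus had medians within -0.06 to 0.15 in all 10 mice.

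**Figure D1:**
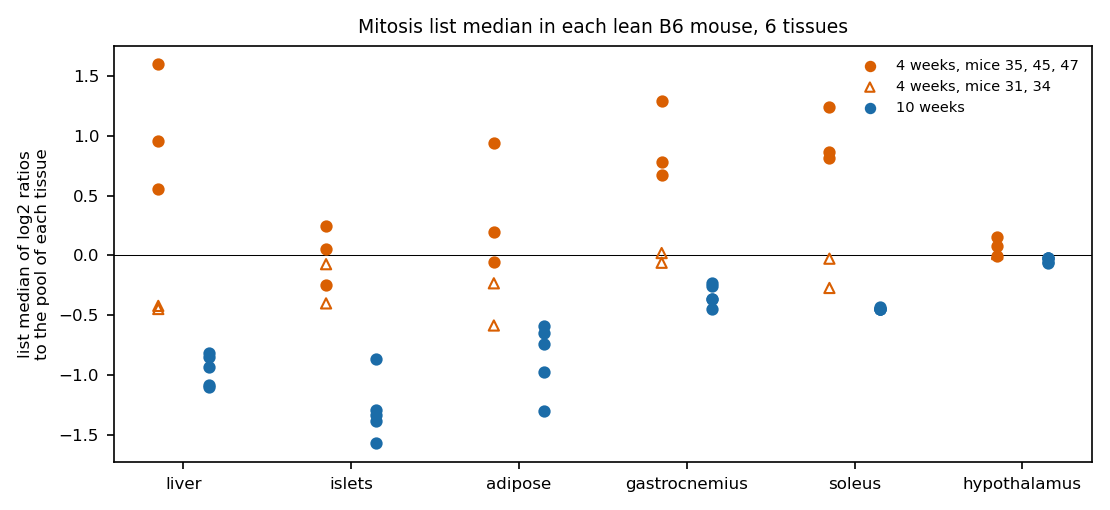
Median log2 ratio to the tissue's pool over the 46 measured mitosis genes, 1 point for each lean B6 mouse and tissue, with 4-week mice 31 and 34 as open triangles, the other 4-week mice as orange circles and 10-week mice as blue circles. In liver, gastrocnemius and soleus both triangles lie below the 3 orange circles and above the blue ones.

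The promoters of the genes that fell with the cell cycle are shown first, because members of these lists moved together. Windows of 250 bases before to 50 bases after a RefSeq transcription start (build GRCm38.p6) were searched on both strands for 2 elements of known cell cycle promoters. These were TTTGAA or TTCGAA, the core of the cell cycle genes homology region (CHR), and GCGGGAAA or TTTCGCGC, strict forms of the E2F site. The CHR letters stood in 31 of 39 windows of 37 of the 46 mitosis genes (79.5%), in 7 of 41 windows of 35 of the 42 replication genes (17.1%) and in 19.2% of all 32851 windows. The E2F letters stood in 2 of 39 mitosis windows (5.13%), in 10 of 41 replication windows (24.4%) and in 1.37% of all windows. Capitals mark these letters below, in 3 of the 4 mitosis genes with the largest falls among those with a window, and in the replication gene with the largest fall.
Mki67, chr7:135716330-135716629, minus strand: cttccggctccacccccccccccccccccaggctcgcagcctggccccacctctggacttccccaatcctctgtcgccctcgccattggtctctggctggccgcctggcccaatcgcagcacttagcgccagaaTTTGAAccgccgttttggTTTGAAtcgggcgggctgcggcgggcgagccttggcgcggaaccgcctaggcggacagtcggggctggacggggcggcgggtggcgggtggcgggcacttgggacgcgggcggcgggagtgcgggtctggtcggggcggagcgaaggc
Ncapg, chr5:45669675-45669974, plus strand: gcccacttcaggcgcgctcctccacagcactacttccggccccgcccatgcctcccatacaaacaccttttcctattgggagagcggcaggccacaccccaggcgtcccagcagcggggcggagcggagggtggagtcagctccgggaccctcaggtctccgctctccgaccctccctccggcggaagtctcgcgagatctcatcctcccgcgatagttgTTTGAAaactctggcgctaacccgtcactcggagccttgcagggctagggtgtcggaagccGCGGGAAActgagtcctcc
Birc5, chr11:117848987-117849286, plus strand: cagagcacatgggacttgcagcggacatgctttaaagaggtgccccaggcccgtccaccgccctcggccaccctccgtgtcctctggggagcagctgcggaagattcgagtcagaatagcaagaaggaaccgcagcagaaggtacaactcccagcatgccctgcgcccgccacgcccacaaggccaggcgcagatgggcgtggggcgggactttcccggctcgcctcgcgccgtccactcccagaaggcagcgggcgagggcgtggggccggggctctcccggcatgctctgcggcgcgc
Mcm6, chr1:128359656-128359955, minus strand: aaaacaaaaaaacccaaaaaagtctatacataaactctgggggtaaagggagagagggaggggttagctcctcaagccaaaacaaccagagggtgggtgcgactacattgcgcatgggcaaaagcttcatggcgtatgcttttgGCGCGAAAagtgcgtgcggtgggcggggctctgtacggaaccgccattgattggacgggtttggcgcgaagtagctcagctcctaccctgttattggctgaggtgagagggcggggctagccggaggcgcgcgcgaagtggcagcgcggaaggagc
Mki67 had TTTGAA at 2 places, positions -116 and -98 from the start site. Ncapg had TTTGAA at -30 and GCGGGAAA at 32. In Mcm6 the E2F letters, read on the other strand, stood at -106. The Birc5 window had neither, nor did that of Nusap1, the one not shown. A match describes the letters and not a bound factor.

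Genes of mitosis fell almost throughout. Of 46 measured, 44 fell and none rose, with a median difference of -1.44, and for 41 of the 44 the age groups did not overlap. Mki67 encodes Ki-67, the nuclear protein used to stain dividing cells. Its log2 ratios were -0.87, -0.92, 2.10, 1.23 and 1.32 in 4-week mice 31, 34, 35, 45 and 47, and -1.61, -1.25, -1.66, -2.42 and -2.37 in 10-week mice 20, 22, 23, 24 and 48. Values for each mouse keep this order below. All 10-week livers lay under all 4-week livers, with mice 31 and 34 nearest to them, and the difference was -2.43 ± 0.55 (adjusted p 0.00159).

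Aurkb, the kinase of the chromosomal passenger complex, had -0.64, -0.70, 1.93, 0.95 and 1.35 at 4 weeks and -1.62, -1.34, -1.61, -2.48 and -2.001 at 10 weeks, a difference of -2.39 ± 0.53 (adjusted p 0.00135). Birc5, which encodes survivin of the same complex, had -0.66, -0.76, 1.82, 0.75 and 1.16 and then -1.57, -1.69, -1.57, -1.94 and -1.83, a difference of -2.18 ± 0.46 (adjusted p 0.000684). For the mitotic kinase Pbk the values were -0.92, -0.90, 1.99, 0.66 and 1.12 against -1.78, -1.81, -1.78, -2.38 and -2.16, and the difference was -2.37 ± 0.50 (adjusted p 0.0007). In all 3 genes mouse 35 was highest and mice 31 and 34 were the lowest of the 4-week group, without reaching the 10-week range. Cenpm, a kinetochore gene outside the list, went from -0.45, -0.43, 1.36, 0.17 and 0.44 to -2.44, -1.97, -2.69, -2.05 and -1.93, a difference of -2.44 ± 0.25 (adjusted p 2.31e-08).

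Among other members, the condensin subunit Ncapg differed by -2.15, the spindle checkpoint kinase Bub1 by -2.08, cyclin A2 (Ccna2) by -1.92 and the topoisomerase Top2a by -1.57. Smaller falls were those of Plk1 (-1.26), Foxm1, a transcription factor of G2 and M phase genes (-1.10), and Cdk1, the kinase that drives entry into mitosis (-0.81). The 2 that did not pass were Dlgap5 (-0.05) and Kif23 (0.02). Leaving out 1 mouse gave 40 to 44 falls. Without mice 31 and 34 there were again 44, with a median of -2.08. In bulk liver RNA, fewer dividing cells and less RNA in each cannot be told apart, and this holds for every cell type below.

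Genes of DNA replication and the G1 to S transition fell less. Of 42 measured, 35 fell and 1 rose, with a median of -0.55. Mcm6, a subunit of the replicative helicase, had 0.02, -0.04, 1.29, 1.06 and 0.85 at 4 weeks and -1.20, -0.997, -1.29, -1.28 and -1.24 at 10 weeks. The ages were separate, and the difference was -1.84 ± 0.30 (adjusted p 2.89e-05). Other helicase subunits fell by less, with Mcm3 at -1.003, Mcm2 at -0.97, Mcm5 at -0.93, Mcm4 at -0.69 and Mcm7 at -0.55. Cyclin E2 (Ccne2) went from 0.53, 0.12, 0.85, 0.85 and 1.07 to -1.11, -0.27, -0.71, -1.24 and -0.51, a difference of -1.45 ± 0.17 (adjusted p 2.76e-07). Mouse 34, at 0.12, was the lowest of the 4-week livers and still lay above every adult.

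Uhrf1, which guides DNA methylation after replication, fell with a difference of -1.11 ± 0.25 (adjusted p 0.00156), and 2 subunit genes of ribonucleotide reductase fell, Rrm1 at -0.88 and Rrm2 at -0.71. The sliding clamp Pcna differed by -0.43. Mcm10, an initiation factor, was the exception. Its 1 probe gave 0.45, 0.27, -1.34, -0.75 and -0.46 at 4 weeks and 1.28, 1.09, 1.34, 0.69 and 0.76 at 10 weeks, a rise of 1.40 ± 0.24 (adjusted p 8.79e-05) with no overlap. Without any 1 mouse, 26 to 35 members fell, 26 when mouse 35 was out. Without mice 31 and 34, 36 fell and the median was -0.73.

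**Figure D2:**
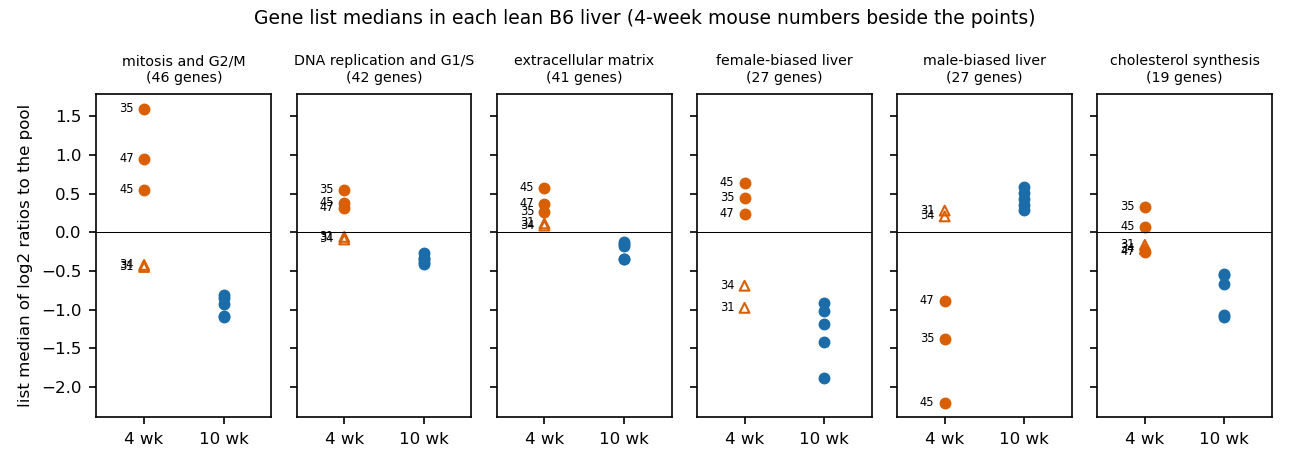
Median log2 ratio to the B6 liver pool over the measured genes of 6 lists, 1 point for each lean B6 liver, with numbers beside the 4-week mice and open triangles for mice 31 and 34. The mitosis medians of mice 31 and 34 are -0.45 and -0.42, between the other 4-week mice and the 10-week mice.

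Female-biased genes were lower at 10 weeks and included the largest fall of the comparison. Of 27 measured, 17 fell and none rose, with a median of -1.25, and in 8 of the 17 the ages did not overlap. Hao2, a peroxisomal hydroxyacid oxidase, had -1.85, -0.90, 1.43, 1.73 and 1.65 at 4 weeks and -5.27, -6.08, -5.61, -5.71 and -5.92 at 10 weeks. The 10-week livers lay within 1 log2 unit of each other, toward the lower limit of the deposited values (-2 on their log10 scale). Whether that limit shaped their spread or the size of the fall was not tested. The 4-week group ran from mouse 31, the lowest, to mouse 45. The difference, -6.13 ± 0.50 (adjusted p 1.19e-10), was the lowest of all 19896 genes, and without mice 31 and 34 it was -7.32.

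A1bg, a plasma glycoprotein gene, had -1.78, -0.08, 0.63, 2.79 and 0.80 at 4 weeks and -3.54, -3.74, -3.69, -2.78 and -3.37 at 10 weeks. Mice 31 and 34 were again lowest at 4 weeks, and the difference was -3.90 ± 0.76 (adjusted p 0.000339). Among cytochromes P450, Cyp3a44 went from -1.96, -0.36, 3.45, 0.77 and 1.02 to -3.24, -3.27, -2.77, -2.80 and -3.15, a difference of -3.63 ± 0.65 (adjusted p 0.000123). Cyp2b9 had -2.59, -2.16, 0.63, 0.27 and 0.24 at 4 weeks and -3.94, -3.98, -3.66, -3.46 and -3.21 at 10 weeks, a difference of -2.93 ± 0.41 (adjusted p 4.58e-06). In Cyp2b9 the young mice formed 2 sets, mice 31 and 34 under -2 and the other three above 0, and neither reached the adult values. Cyp2b13 fell with a difference of -1.97 ± 0.42, and its ages overlapped. Probes of the Cyp2b, Cyp3a, Sult2a and Mup families may read more than 1 member.

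Sult2a1 and Sult2a2, which encode sulfotransferases for steroids and bile acids, split the 4-week group more sharply. Sult2a2 had -6.53, -6.27, 0.94, 1.41 and 0.37 at 4 weeks and -6.42, -6.23, -6.26, -6.31 and -6.22 at 10 weeks. Mice 31 and 34 lay with the 10-week mice, close to the lower limit of the deposited values (-2 on their log10 scale), so the difference of -4.27 ± 1.13 (adjusted p 0.00606) joins livers near that limit with 3 livers above 0. Sult2a1 differed by -4.10 ± 1.14 (adjusted p 0.00881) with the same split. Sult3a1 went from -3.17, -2.29, 0.26, -1.50 and -0.74 to -3.67, -3.74, -4.01, -3.70 and -3.36, a difference of -2.21 ± 0.70 (adjusted p 0.0213), which rose to an adjusted p of 0.0927 without mouse 35.

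Outside the list, Akr1c18, the 20-alpha-hydroxysteroid dehydrogenase that inactivates progesterone, had -1.55, -1.77, 2.92, 1.12 and 1.40 at 4 weeks. At 10 weeks it was -3.70, -3.53, -3.49, -3.62 and -3.36, a difference of -3.96 ± 0.45 (adjusted p 1.32e-07). The adult livers were nearly alike, and mice 31 and 34 lay between them and the others. List members that did not pass included Sult1e1 (-0.98), Cyp17a1 (-1.27) and Cux2, a female-specific repressor (-0.27). Leaving out any 1 mouse gave 14 to 20 falls, and leaving out mice 31 and 34 gave 24, with a median of -1.65.

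Male-biased genes were higher at 10 weeks. Of 27 measured, 17 rose and none fell, with a median of 1.25, and in 6 of the 17 the ages were separate. Scara5, a scavenger receptor that binds ferritin, had the largest rise among genes whose ages did not overlap, from -1.85, -1.87, -3.18, -3.17 and -4.17 to 0.09, 3.42, 0.62, 0.42 and 0.63. Mouse 22 stood far above the other adults, and the difference was 3.89 ± 0.54 (adjusted p 3.14e-06, at most 3.15e-05 with 1 mouse left out). C6, a component of the complement attack complex, had 0.03, -0.20, -2.77, -2.20 and -2.37 at 4 weeks and 1.70, 1.59, 1.32, 1.23 and 1.15 at 10 weeks, a rise of 2.90 ± 0.34 (adjusted p 2.34e-07). For C6, mice 31 and 34 were near the pool while the other three lay under -2.

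Nat8, an N-acetyltransferase of the endoplasmic reticulum, went from -1.05, -1.97, -2.99, -2.88 and -3.25 to 0.49, 0.39, -0.20, 0.41 and 1.03, a rise of 2.85 ± 0.33 (adjusted p 2.34e-07). Mup5, one of the major urinary proteins that carry pheromones, had -0.02, -1.29, -2.97, -4.55 and -1.93 and then 0.58, 0.41, 0.40, 0.54 and 0.61, a rise of 2.66 ± 0.63 (adjusted p 0.00249). The 4-week spread was wide and the adult spread narrow. Gstp1, a glutathione transferase, rose by 1.60, and Mup4 by 1.97. Mup2 rose by 1.66, and Mup3, at 1.13, did not pass.

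In other male-biased genes mouse 31, mouse 34 or both lay within or above the adult range, and the ages overlapped. Elovl3, an elongase of very long chain fatty acids, had 0.98, -0.44, -4.17, -3.83 and -3.44 at 4 weeks and 1.59, 0.88, 1.58, 1.14 and 1.43 at 10 weeks, with a rise of 3.50 ± 0.68 (adjusted p 0.00032). Cyp7b1, the oxysterol 7-alpha-hydroxylase, went from 0.30, 0.70, -1.87, -2.56 and -1.84 to 2.01, 1.40, 1.13, 1.23 and 0.64, a rise of 2.34 ± 0.44 (adjusted p 0.000237). Slco1a1, an uptake transporter for organic anions, was higher in mice 31 and 34 than in any adult, with 1.74, 1.73, -1.81, -4.08 and -0.27 at 4 weeks and 1.47, 0.94, 1.36, 0.97 and 1.28 at 10 weeks. Its rise of 1.75 ± 0.56 (adjusted p 0.0236) had an adjusted p of 0.12 without mouse 45, and without mice 31 and 34 the difference was 3.26.

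Hsd3b5, a male-specific steroid dehydrogenase, rose by 2.34 and Ugt2b38, a glucuronosyltransferase, by 2.44. Bcl6, the repressor that opposes STAT5 at female-biased genes, had -0.61 and did not pass. The count of rises depended on single mice, from 9 without mouse 45 to 22, and was 23 without mice 31 and 34, with a median of 1.97. The STAT5 letters TTCNNNGAA stood in 3 of 23 windows of 20 male-biased genes (13%), in 3 of 26 windows of 19 female-biased genes (11.5%) and in 8.3% of all windows.

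Several of the largest rises lay outside the male-biased list. Nox4, an NADPH oxidase that releases hydrogen peroxide, had -1.36, -1.35, -2.65, -2.14 and -2.95 at 4 weeks and 1.31, 1.31, 1.18, 1.01 and 1.31 at 10 weeks. The adult livers were within 0.3 log2 units of each other, and the rise of 3.31 ± 0.24 had the smallest adjusted p of the named rises (8.78e-12). Its promoter is shown with that of Hao2, since Hao2 gave the largest fall, and capitals mark the STAT5 letters. Nox4 held them at position -222 from the start site, and the Hao2 window did not hold them.
Nox4, chr7:87246399-87246698, plus strand: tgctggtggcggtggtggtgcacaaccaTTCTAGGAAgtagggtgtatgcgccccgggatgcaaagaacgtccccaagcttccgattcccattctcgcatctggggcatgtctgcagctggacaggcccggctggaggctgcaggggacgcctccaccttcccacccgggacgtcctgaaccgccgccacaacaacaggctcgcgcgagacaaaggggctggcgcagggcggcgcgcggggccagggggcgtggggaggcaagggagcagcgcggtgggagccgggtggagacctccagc
Hao2, chr3:98893181-98893480, minus strand: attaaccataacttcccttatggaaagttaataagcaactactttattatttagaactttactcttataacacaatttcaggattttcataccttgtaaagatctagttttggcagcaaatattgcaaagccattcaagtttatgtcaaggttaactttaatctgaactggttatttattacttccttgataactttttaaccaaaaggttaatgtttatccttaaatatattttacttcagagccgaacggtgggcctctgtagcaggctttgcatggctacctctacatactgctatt
Cyp4a12, the omega-hydroxylase of fatty acids that is known as male-biased in mice, rose by 3.23 ± 0.56 (adjusted p 7.04e-05). Its 4-week values were -0.61, -0.80, -3.57, -3.72 and -3.50, mice 31 and 34 being nearest to the pool, and the 10-week values were 1.12, 0.48, 0.83, 0.54 and 0.97.

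Hspb1, a small heat shock protein gene, had -0.45, -0.63, -2.25, -1.77 and -1.60 at 4 weeks and 1.20, 0.68, 1.18, 0.49 and 1.16 at 10 weeks, a rise of 2.28 ± 0.21 (adjusted p 1.1e-09). The rise of Obp2a, an odorant-binding lipocalin, was 2.59 ± 0.52 (adjusted p 0.000483), with all 4-week mice together at -1.28, -1.45, -1.66, -1.33 and -2.03 and adults at 0.93, 2.47, 0.21, 1.21 and 0.37. Mice 31 and 34 did not stand apart in Obp2a. Gsta1, a glutathione transferase, rose by 2.11 ± 0.41 (adjusted p 0.000284), and mouse 34 had the lowest of its values: -2.69, -3.89, -2.29, -1.48 and -3.40 against -1.15, -1.44, -0.55, -0.18 and 0.14. Csad, which makes the precursor of taurine, rose by 1.99 ± 0.37 (adjusted p 0.000202), from -0.98, -0.47, -2.54, -0.42 and -1.27 to 0.93, 0.43, 1.06, 0.65 and 1.18. Dnase2a, a lysosomal nuclease, gave -0.98, -0.48, -2.58, -0.42 and -1.20 and 0.95, 0.38, 1.08, 0.67 and 1.25, the values of Csad to within 0.1 in each mouse, and whether the probes read separate transcripts was not tested. Nup210l rose by 2.16 ± 0.17 (adjusted p 6.74e-11). Of the falls outside the lists, Nt5e, which encodes the ecto-nucleotidase CD73, had -0.50, -0.12, 0.83, 0.50 and 0.25 at 4 weeks and -2.22, -2.54, -1.90, -1.52 and -2.35 at 10 weeks, a difference of -2.30 ± 0.18 (adjusted p 5.74e-11), with the ages separate.

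**Figure D3:**
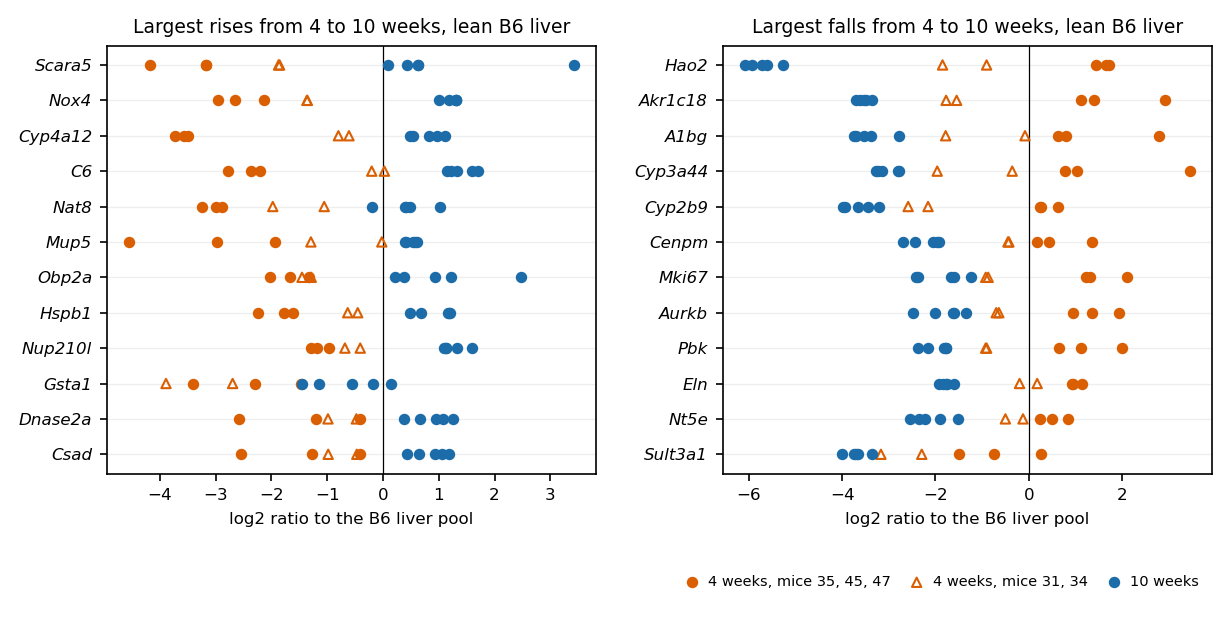
Log2 ratio to the B6 liver pool in each mouse for the 12 largest rises (left) and 12 largest falls (right) among genes past the threshold whose ages did not overlap, with 4-week mice 31 and 34 as open triangles. For Hao2, C6 and Mki67 the triangles lie between the other 4-week mice and the 10-week mice, and for Obp2a, Gsta1 and Csad they do not.

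Extracellular matrix genes fell as a group. Of 41 measured, 29 fell and 2 rose, with a median of -0.54, and the ages were separate for 24 of the falls. Eln, the gene of elastin, had -0.20, 0.18, 0.94, 1.13 and 0.93 at 4 weeks and -1.83, -1.77, -1.59, -1.75 and -1.93 at 10 weeks, a difference of -2.37 ± 0.20 (adjusted p 2.07e-10). Among the fibrillar collagens, Col3a1 went from 0.46, 0.21, 0.57, 1.29 and 0.85 to -1.21, -0.95, -1.32, -1.64 and -1.42, a difference of -1.99 ± 0.20 (adjusted p 7.6e-09). Col1a1 had 0.19, -0.10, 0.26, 1.22 and 0.48 and -1.30, -1.13, -1.44, -1.77 and -1.68, a difference of -1.87 ± 0.23 (adjusted p 3.96e-07). For both collagens mice 31 and 34 lay below or next to the lowest of the other 4-week mice and far above the adults.

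Sparc, a collagen-binding glycoprotein, fell with a difference of -1.47 ± 0.13 (adjusted p 1.1e-09). The cross-linking enzymes Loxl2 (-1.38) and Lox (-1.12) fell too, and so did the basement membrane collagens Col4a1 (-0.97) and Col4a2 (-0.98). The 2 rises were Timp1, an inhibitor of matrix proteases (0.44), and P4ha2, a collagen prolyl hydroxylase subunit (0.37). Fibronectin (Fn1, -0.30) and decorin (Dcn, -0.04) did not pass. Leaving out 1 mouse gave 25 to 29 falls, and without mice 31 and 34 there were 30, with a median of -0.64. Of 10 stellate cell markers, the cells that make most liver matrix, 1 fell, Lrat (-0.65), and none rose, with a median of -0.04.

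Genes of juvenile growth changed in part. Of 20 genes of juvenile growth, many of them imprinted, 8 fell and 1 rose, with a median of -0.19. Without mice 31 and 34, 11 fell and 1 rose, and the median was -0.37. Gpc3, a cell-surface proteoglycan that restrains growth, had -1.04, -0.91, 2.01, 1.29 and 1.08 at 4 weeks and -1.40, -1.34, -1.35, -1.41 and -1.40 at 10 weeks. The adult values were within 0.1 of each other, mice 31 and 34 lay nearest to them, and the difference was -1.87 ± 0.31 (adjusted p 5.24e-05). Igf2bp3, a fetal RNA-binding protein gene, went from -0.06, 0.25, 1.37, 1.08 and 1.29 to -1.07, -0.72, -0.98, -0.92 and -0.85, a difference of -1.70 ± 0.19 (adjusted p 7.6e-08).

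Imprinted members with falls were Cdkn1c, a cyclin kinase inhibitor (-0.88), Mest (-0.79), Peg3 (-0.77) and Grb10, an adaptor that dampens insulin signalling (-0.56). The rise was in Slc38a4, an amino acid transporter (0.44). Igf2 (-0.19), Dlk1 (-0.14) and Meg3 (-0.07) did not pass. Of 18 fetal and early postnatal liver genes, which share Gpc3 and the Igf2bp genes with the first list, 6 fell and 2 rose, and 7 and 2 without mice 31 and 34. Afp, the fetal serum protein alpha-fetoprotein, fell at -0.57, and Lpl, the lipoprotein lipase that adult hepatocytes scarcely express, at -1.99 ± 0.47 (adjusted p 0.00214).

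Growth hormone and insulin-like growth factor genes showed little common change, with 3 higher and 4 lower of 28 and a median of 0.05. Without mice 31 and 34 there were 2 higher and 7 lower, and the rises ran from 0 (without mouse 22 or 23) to 5 with 1 mouse left out. Igfbp3, a carrier of IGF-1, went from 0.02, 0.20, 0.17, 0.39 and 0.14 to -0.34, -0.52, -0.19, -0.39 and -0.10, a difference of -0.49 ± 0.10 (adjusted p 0.000339). Stat5a differed by -0.45 ± 0.14 (adjusted p 0.0235), a call that was lost without any 1 of mice 35, 47, 22 and 48, with an adjusted p of up to 0.0941. Socs3, a feedback inhibitor of cytokine signalling, had -1.04, -2.25, 0.61, 0.17 and -1.01 and 1.09, 2.33, 1.92, -0.67 and -1.07, with values on both sides of 0 at each age. Its difference of 1.42 ± 0.51 had an adjusted p of 0.0406, and of 0.321 without mice 31 and 34.

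Cholesterol synthesis fell in lean B6 liver, with 16 of 19 genes lower, none higher and a median of -0.65. Hmgcs1, which makes HMG-CoA, had -0.68, -0.57, 0.61, -0.11 and -0.60 at 4 weeks and -1.24, -1.20, -1.76, -1.45 and -0.85 at 10 weeks, a difference of -1.03 ± 0.26 (adjusted p 0.00416). Fdps, the farnesyl diphosphate synthase, went from 0.09, -0.18, 0.65, 0.13 and -0.08 to -1.04, -0.83, -1.57, -1.57 and -0.31, a difference of -1.19 ± 0.20 (adjusted p 6.66e-05). Nsdhl, a sterol dehydrogenase, had -0.32, -0.24, 0.63, -0.48 and -0.54 and -1.04, -1.12, -1.67, -1.52 and -0.85, a difference of -1.05 ± 0.19 (adjusted p 0.000129). In all 3 the ages were separate, mouse 35 was highest and mice 31 and 34 lay with mice 45 and 47.

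Further falls were in Idi1 (-0.94), Cyp51 (-0.91), squalene synthase (Fdft1, -0.90), squalene epoxidase (Sqle, -0.65) and Srebf2, the gene of the transcription factor that activates this pathway (-0.44). Hsd17b7 (-0.38), Insig1 (-0.25) and Ebp (-0.23) did not pass. Without mouse 35 the count of falls was 10, the lowest for any mouse left out. Without mice 31 and 34 it was 15, with a median of -0.78. Of 27 genes of fatty acid and triglyceride synthesis only 3 fell, Pklr (-0.76), Acacb (-0.53) and Tkfc (-0.50), and 2 rose, with a median of -0.25.

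The age difference was set beside that of lean BTBR liver, whose ratios refer to another pool that cancels likewise. In lean BTBR liver 4405 genes passed, and the lean B6 and lean BTBR age differences themselves differed for 142 genes (0.714%), 69 higher and 73 lower in B6. In the mitosis and matrix lists, 42 of 46 mitosis genes and 29 of 41 matrix genes fell in BTBR, and in neither list did a gene pass the test of the difference. In cholesterol synthesis none of 19 genes passed in BTBR, where the median was 0.07. The test of the difference called 4 of the 19, all lower in B6. For Fdps the BTBR difference was 0.14 ± 0.20 and the B6 minus BTBR difference -1.33 ± 0.29 (adjusted p 0.0172), and for Nsdhl these were 0.19 ± 0.19 and -1.24 ± 0.27 (adjusted p 0.0172). The other two were Dhcr7 and Pmvk. The median difference over the 19 genes was -0.70. On the 20 lean arrays alone none of the 19 passed, with a lowest adjusted p of 0.104. Leaving out 1 lean B6 mouse gave 2 to 4 genes and leaving out mice 31 and 34 gave 7, while no BTBR mouse was left out.

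The sex-biased lists moved the same way in BTBR, where 16 of 27 female-biased genes fell (median -0.91) and 12 of 27 male-biased genes rose (median 0.84). The test of the difference called 1 female-biased gene higher and 1 lower in B6, and 0 male-biased genes higher and 1 lower. Of the female-biased genes, Cyp2b9 did not pass in BTBR, at 0.18 ± 0.41. Its difference between strains was -3.11 ± 0.59 (adjusted p 0.00447, but 0.104 on the 20 lean arrays alone). Outside the list, Akr1c18, at -0.24 ± 0.45 in BTBR, differed by -3.72 ± 0.64 (adjusted p 0.00149, but 0.104 on those 20 arrays). Hao2 fell in both, at -6.53 ± 0.50 in BTBR. Cebpe, a transcription factor of granulocytes, went from -0.18, -0.77, -1.01, -1.36 and -1.13 to 0.29, 0.27, 0.33, 0.43 and 0.45 in B6, a rise of 1.24 ± 0.11, with -0.21 ± 0.11 in BTBR and a difference of 1.46 ± 0.16 (adjusted p 1.12e-06). Slc2a2, the hepatocyte glucose transporter GLUT2, had -0.21, 0.03, 0.07, -0.23 and 0.20 and -0.75, -1.23, -0.55, -0.23 and -0.48 in B6, a difference of -0.62 ± 0.13, against 0.17 ± 0.13 in BTBR and a difference of -0.79 ± 0.18 (adjusted p 0.0269, but 0.195 on the 20 lean arrays).

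Tff3, a trefoil peptide of mucous epithelia, had -0.19, -0.94, -0.54, 1.23 and -1.67 at 4 weeks and 1.33, 2.52, 0.37, 0.63 and 0.86 at 10 weeks in B6. It rose by 1.56 ± 0.44, with mouse 45 within the adult range, and fell in BTBR, at -2.92 ± 0.44, a difference of 4.48 ± 0.62 (adjusted p 0.0001). Asns, asparagine synthetase, went from -0.21, -0.38, 0.62, -0.08 and -0.48 to 1.40, 1.20, 0.87, 0.89 and 0.74 in B6, a rise of 1.13 ± 0.25 (adjusted p 0.00133), with -0.43 ± 0.25 in BTBR and a difference of 1.56 ± 0.36 (adjusted p 0.0251). On the 20 lean arrays the adjusted p of that difference was 0.0587, and the call was also lost without mouse 47 or 10-week mouse 20. The interferon response gene Usp18 fell in B6, at -0.78 ± 0.13, with 0.22 ± 0.13 in BTBR and a difference of -1.01 ± 0.19 (adjusted p 0.00424, but 0.0873 on the 20 lean arrays). The count of 142 was sensitive to the mice used: without single lean B6 mice it ran from 87 to 259, and without mice 31 and 34 it was 360, of which 120 were among the 142. On the 20 lean arrays alone it was 13.

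**Figure D4:**
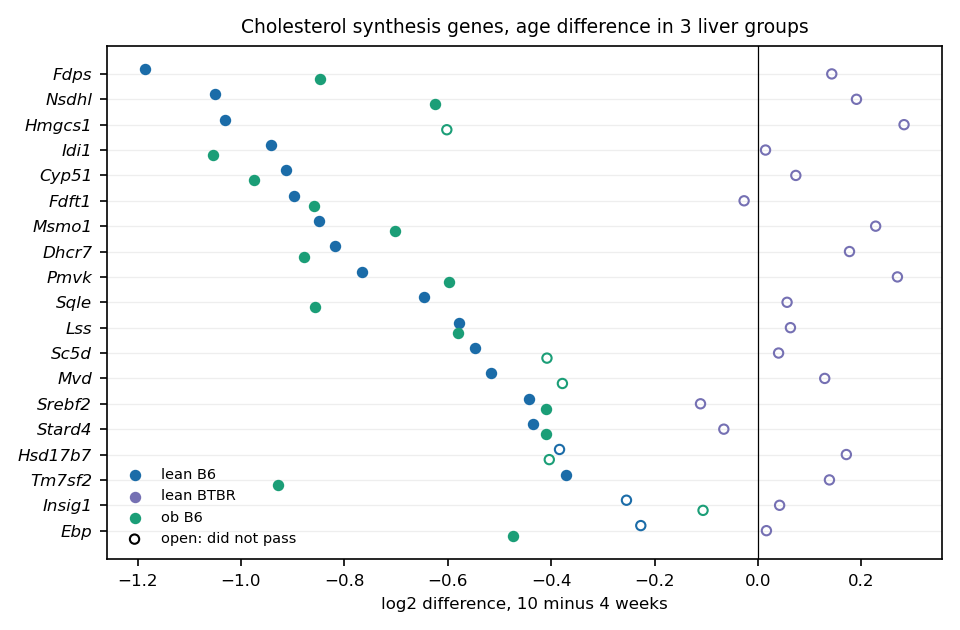
Log2 difference, 10 minus 4 weeks, of the 19 measured cholesterol synthesis genes in lean B6 (blue), lean BTBR (purple) and ob B6 liver (green), filled where the adjusted p was under 0.05. The medians are -0.65, 0.07 and -0.60, and no BTBR point is filled.

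Lean B6 was also set beside B6 mice carrying ob, which lack working leptin and become obese. In ob B6 liver 3714 genes passed with age, and the lean and ob age differences differed for 1357 genes (6.82%), 660 higher and 697 lower in lean. There were 1604 without mice 31 and 34. Cholesterol synthesis fell in both, with 14 of 19 lower and a median of -0.60 in ob. Of the mitosis genes 21 of 46 fell in ob, with a median of -0.81, and none passed the test of the difference. The sex-biased lists moved the same way in ob, where 10 of 27 female-biased genes fell (median -0.52) and 12 of 27 male-biased genes rose (median 0.46). The test of the difference called 0 female-biased genes higher and 4 lower in lean, and 2 male-biased genes higher and 1 lower. Scara5 showed no call in ob, at 0.07 ± 0.54, and differed by 3.82 ± 0.76 (adjusted p 0.00112). Hao2 fell in lean and ob, at -2.69 ± 0.50 in ob, a difference of -3.45 ± 0.70 (adjusted p 0.00152).

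Of the Cyp2b genes, Cyp2b9 was 0.09 ± 0.41 in ob against its fall in lean, a difference of -3.02 ± 0.59 (adjusted p 0.000897). Slc3a1, a subunit of the cystine transporter, rose in lean from -0.27, -0.54, -1.52, -0.65 and -1.40 to 0.69, 1.49, 0.82, 0.82 and 0.75, by 1.79 ± 0.23, and fell in ob, at -1.60 ± 0.23, a difference of 3.39 ± 0.32 (adjusted p 4.7e-09). The 2 lowest differences went with rises in ob. Cidea, a lipid droplet protein gene, had -4.51, -4.38, -4.63, -4.46 and -4.73 and -4.30, -4.28, -4.42, -4.38 and -4.31 in lean mice, a difference of 0.20 ± 0.18 that did not pass, against 6.23 ± 0.18 in ob. Cidec did not pass in lean (0.77) and rose by 4.53 ± 0.31 in ob.

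Of 38 complement and coagulation genes, 14 had a higher age difference in lean than in ob and none a lower one, against 660 and 697 of all 19896 genes. In ob 15 of the 38 fell with age and 2 rose, with a median of -0.185. In lean 7 were higher and 3 lower with age, with a median of 0.039, and 9 and 2 without mice 31 and 34. The terminal complement genes were among the lean rises. C9 went from 0.60, 0.40, -2.02, -1.80 and -1.55 to 0.87, 1.20, 0.72, 0.75 and 0.46, a rise of 1.67 ± 0.33 (adjusted p 0.000367), with mouse 31 within the adult range and mouse 34 just under it. C8a had 0.76, 0.42, -0.49, -0.63 and -0.12 and 0.99, 1.40, 1.04, 0.53 and 1.07, a rise of 1.02 ± 0.24 (adjusted p 0.00199). Hc, the gene of complement C5, rose by 0.55 ± 0.17 (adjusted p 0.0175), with an adjusted p of 0.1 without mouse 22, the highest adult. C8b, at 0.37, did not pass.

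Enzymes of drug and steroid metabolism moved both ways. Of 53 cytochrome P450 genes 8 rose and 17 fell, with a median of -0.15, against 11 and 17 without mice 31 and 34 and 4 rises without any 1 of mice 35 and 45 and 10-week mouse 20. Several of them are female-biased or male-biased genes given above. Cyp39a1, an oxysterol hydroxylase, went from 0.01, 0.78, 1.26, 1.01 and 1.07 to -1.12, -1.89, -0.51, -0.09 and -0.81, a difference of -1.71 ± 0.30 (adjusted p 8.59e-05). Cyp7a1, the rate-limiting enzyme of bile acid synthesis, differed by -0.81, and Cyp2c70, which makes muricholic acids, by -0.77. Cyp2e1 (0.03), Cyp3a11 (0.14) and Cyp1a2 (-0.40) did not pass.

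Of 62 genes of conjugation and drug transport 22 rose and 16 fell, with a median of -0.01, and 23 and 21 without mice 31 and 34. The rises included the aldehyde oxidases Aox1 (1.40) and Aox3 (1.39), Gsta2 (1.77), the export pump Abcc3 (0.76) and epoxide hydrolase 1 (Ephx1, 0.49). The falls included Fmo1 (-0.88) and Fmo2 (-0.94), flavin monooxygenases, and the aryl hydrocarbon receptor (Ahr, -0.67). Ugt2b38 had 1.61, 1.07, -3.44, -3.73 and -1.71 at 4 weeks and 2.06, 1.06, 1.62, -0.22 and 1.48 at 10 weeks, mice 31 and 34 being within the adult range, and rose by 2.44 ± 0.70 (adjusted p 0.0109).

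Of 31 genes of the major histocompatibility complex (MHC) and antigen presentation 7 rose and none fell, with a median of 0.14. There were also 7 without mice 31 and 34, with a median of 0.23. The largest of these rises were in 3 chains of MHC class II, which presents peptides to helper T cells, and in Cd74. H2-Eb1, a class II beta chain, had -0.44, -0.56, -1.16, -0.59 and -1.10 at 4 weeks and 0.82, 1.17, 1.01, -0.30 and 0.64 at 10 weeks, a rise of 1.44 ± 0.34 (adjusted p 0.00251). H2-Aa rose by 1.38 ± 0.35, H2-Ab1 by 1.28 ± 0.30 and Cd74, the invariant chain, by 0.90 ± 0.24, with adjusted p of 0.00419, 0.00214 and 0.00656. In all 4 genes the ages were separate, mouse 24 being the lowest adult and mouse 22 the highest. In H2-Eb1 mice 31, 34 and 45 lay together, above mice 35 and 47.

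The class II activator Ciita (0.24), H2-DMa (0.57) and B2m (0.16) rose by less. Other class II genes did not pass, namely H2-Ea (-0.01), H2-DMb1 (0.07), H2-DMb2 (0.25), H2-Oa (0.08) and H2-Ob (0.11), nor did class I H2-K1 (0.23) and H2-D1 (0.18). B cell markers moved with no call: 0 of 6 passed, and their median per mouse was -0.06 to 0.21 at 4 weeks and -0.25 to 0.38 at 10 weeks. Of 12 Kupffer cell and macrophage markers 1 fell, Folr2, and none rose, with medians of 0.06 to 0.36 at 4 weeks and -0.54 to 0.635 at 10 weeks. In both lists mouse 24 was the lowest adult and mouse 22 the highest, as in the 4 genes with the largest rises, and their part in those rises was not tested.

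Glucose and glycogen genes fell more often than they rose, 9 against 1 of 26, with a median of -0.20. Pklr, liver pyruvate kinase, had -1.14, -0.55, -0.89, -1.23 and -0.54 at 4 weeks and -1.64, -1.82, -1.66, -1.85 and -1.18 at 10 weeks, a difference of -0.76 ± 0.15 (adjusted p 0.000286). Liver glycogen phosphorylase (Pygl) differed by -0.45 and Pfkfb1 by -0.78, while Sds, serine dehydratase, rose by 0.87. The gluconeogenic genes Pck1 (-0.05), G6pc (-0.43) and Fbp1 (-0.13) did not pass. Over all genes 10.4% rose and 11.3% fell. Of 35 genes of fatty acid oxidation, 4 rose, near that share, and 1 fell, but without mice 31 and 34 the balance turned, with 3 higher and 9 lower. With 1 mouse left out there were 2 to 8 rises and 1 to 5 falls. The genes that passed included Plin2, a lipid droplet coat protein gene, at 0.76 ± 0.18 (adjusted p 0.00266) and the ketone enzyme Bdh1 at -0.81 ± 0.14 (adjusted p 8.1e-05).

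In 32 interferon response genes none rose and 4 fell (2 to 6 with 1 mouse left out), among them Usp18, which went from 0.84, 0.51, 0.64, 0.26 and 1.05 to -0.11, 0.12, -0.19, -0.21 and -0.22 with adjusted p 5.8e-05. In the mitochondrial respiratory chain 8 of 52 genes fell and 1 rose, with a median of -0.09. Cycs, cytochrome c, differed by -0.48 ± 0.07 (adjusted p 2.67e-06), and the count of falls was 4 to 19 when 1 mouse was left out. Of 54 ribosomal protein genes 8 fell and 2 rose, with a median of -0.05, and the falls numbered 3 (without mouse 24) to 14 with 1 mouse left out. Falls in the interferon, respiratory chain and ribosomal lists lay near the 11.3% of all genes that fell. Urea cycle rises, given next, lay near the 10.4% of all genes that rose. Urea cycle and amino acid breakdown had 5 rises and 2 falls in 38 (2 to 6 falls with 1 mouse left out), and lipoproteins 0 and 6 in 23, among them Apom at -0.54 ± 0.13 (adjusted p 0.00202) and Apof at -0.44 ± 0.07 (adjusted p 4.42e-05).

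**Figure D5:**
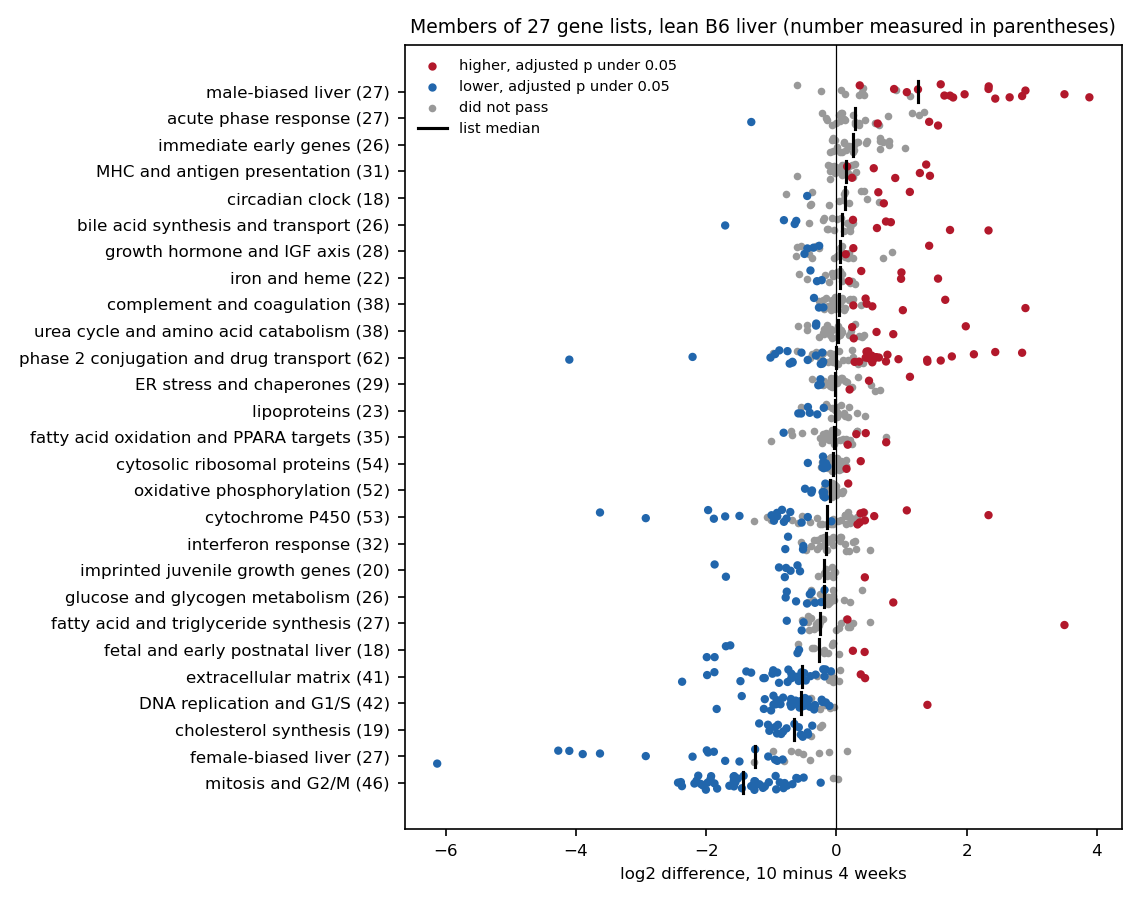
Log2 difference, 10 minus 4 weeks, of each measured member of 27 gene lists in lean B6 liver, ordered by the list median (black bar), in red where higher and blue where lower at an adjusted p under 0.05. Mitosis, female-biased, cholesterol synthesis, replication and matrix genes have medians from -1.44 to -0.54, and male-biased genes 1.25, against 0.003 over all genes.

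The labelled tissue could be checked only as ratios to a liver pool. Of 11 hepatocyte markers 1 rose, Hnf4a, and 1 fell, Ttr, with list medians per mouse of -0.06 to 0.12. Albumin (Alb) was 0.01, -2.17, -0.07, 0.23 and 0.06 at 4 weeks and -0.09, -0.02, -0.03, -0.03 and 0.00 at 10 weeks, with mouse 34 apart. Of 7 bile duct markers 1 rose and 2 fell, of 10 sinusoidal endothelial markers 3 fell, and of 10 T and NK cell markers 1 rose, Cd3e. Erythroid markers had 2 rises and 2 falls in 12. The neutrophil list had none of 9, with medians per mouse from -1.08 in mouse 24 to 0.43 in mouse 45. Markers of fat, pancreas and muscle, which can come along in dissection, had 2 and 1, 2 and 1, and 1 and 1 calls up and down of 6, 7 and 6, with list medians per mouse within -0.24 to 0.07. What part cell makeup has in any list above was not tested.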

How the data were processed

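Liver RNA of single mice was hybridised with a strain and tissue pool on 2-colour arrays. Per the labels, RNA was extracted with Trizol and a silica column and amplified once to labelled cRNA, and the pool joined equal RNA portions. The authors deposited log10 ratios between -2 and 2, of which 142 liver values lay at a limit. How spots were read, corrected and scaled is not given in the sources used here. Those deposited log10 values were rescaled to log2. Array medians in liver were -0.0054 to 0.0121 on the log10 scale. The number of arrays, 5 per group, limits the precision, and no spot intensity or background was used.

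Of 39556 probes, 23283 (58.9%) had 1 gene symbol in the platform annotation and the other 16273 were not analysed. Probes of a gene were averaged, giving 19896 genes, 17027 with 1 probe. limma 3.58.1 (R 4.3.3) was fitted to 8 group means over 40 liver arrays, with Benjamini-Hochberg adjusted p-values. Tables and figures used Python 3.11.15, numpy 2.4.6, pandas 2.3.3 and matplotlib 3.10.9. On simulated data with 200 changed genes, 5.08% of calls were false, and with no change 0 genes were called. That noise was independent between genes and equally wide in all groups, so the rates may not hold for the uneven 4-week group. Alternatives varied the arrays, probes, scaling, weights and mice. The mice left out were lean B6 mice only, so no BTBR or ob mouse was left out singly.

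The members and gene lists were chosen with earlier results of these data known, and some of the members of the lists had been seen to move. Named genes are the 12 largest rises and 12 largest falls past the threshold without overlap of the ages, up to 4 members of each list with the largest called change, the 6 largest differences each way for strain and for ob, and the cell type markers. Placeholder symbols were skipped. Other list members named with a difference alone were chosen for their role after their values were seen. Promoter sequences are RefSeq's for build GRCm38.p6, matched by symbol.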

Additional observations from a re-analysis of the deposited data

Results flagged for a closer look

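Single livers stood apart from their 4 group mates in 9 of 248 tests, by a gap ratio above the 95% value of Dixon's test. Chance passes that value in about 1 in 20 groups of 5. The tests took both ages of the genes named by rule. Genes named only as cell type markers, such as Alb and Lcn2, or only for their role were not tested. Mouse 22, at 10 weeks, was the highest for Scara5 (log2 ratio to the pool 3.42), Apcs (0.64), Hc (1.40) and Slc3a1 (1.49), and the lowest for Cdkn1c (-1.06) and Hamp (-1.03). At 4 weeks, mouse 35 was the highest for Nsdhl (0.63) and the lowest for Hamp (-3.80), and mouse 45 the lowest for Acaa1a (-0.72).

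The age difference of lean B6 liver differed from that of lean BTBR liver, by limma's test of the difference, in the genes that follow, each value being B6 minus BTBR on the log2 scale. It was higher in B6 for Tff3 (4.48), the membrane receptor gene Mmd2 (1.91), Asns (1.56), Cebpe (1.46), the sialyltransferase St8sia3 (1.29) and the drug export pump Abcb1b (1.24). It was lower for Akr1c18 (-3.72), Cyp2b9 (-3.11), the kinase Aatk (-1.56), the heme-binding protein Hebp2 (-1.39), the sodium channel subunit Scnn1b (-1.37) and Arrdc2 (-1.37). On the 20 lean arrays alone the calls of Akr1c18, Cyp2b9, Asns, St8sia3, Hebp2 and Arrdc2 were lost, with adjusted p from 0.0587 to 0.152. That of St8sia3 was lost in 8 of the alternatives run, including quantile normalization and 5 of the mice left out singly.

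Against ob B6 liver, with values as lean minus ob, the age difference was higher in lean for Scara5 (3.82), Tff3 (3.55), Slc3a1 (3.39), Serpina4-ps1 (2.87), the lectin Clec2h (2.66) and metallothionein 1 (Mt1, 2.21). The call of Serpina4-ps1 was lost on the 20 B6 arrays, and that of Mt1 without mouse 34 or 22. The age difference was lower in lean than in ob for Cidea (-6.02), Cidec (-3.77), Hao2 (-3.45), Themis (-3.28), the sterol-binding protein Osbpl3 (-3.12) and adipsin (Cfd, -3.05). Of these, Themis rose in ob by 3.50 ± 0.18, Osbpl3 by 3.30 ± 0.18 and Cfd by 3.59 ± 0.19, and in lean they were at 0.22 ± 0.18, 0.18 ± 0.18 and 0.54 ± 0.19.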

How the results depend on the processing

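No paired analysis was possible because the 4-week and 10-week livers came from different mice with no shared number. No difference checked for a gene named by rule changed sign under the alternatives run. Genes named only as cell type markers or only for their role were not checked for this. Balances of calls did change side. Over all genes 2064 higher and 2247 lower became 2516 and 2413 without mice 31 and 34, and fatty acid oxidation went from 4 and 1 to 3 and 9. The strain difference went from 69 and 73 to 114 and 101 without mouse 31. With the 10 lean B6 arrays alone 1721 genes passed, 1678 of them among the 4311, and 30 named genes lost their call, among them Sult2a1, Sult2a2, Gpc3, C9, Lpl, Ugt2b38 and Slco1a1. With each of 39556 probes on its own 6829 probes passed. Leaving out 1 mouse gave 2947 (without mouse 35) to 4479. The strain difference had 142 genes, 87 (without mouse 35 or 10-week mouse 20) to 259 (without mouse 45) with 1 mouse left out, 13 on the 20 lean arrays and 360 without mice 31 and 34, that pair being an alternative added after seeing the data. The difference from ob had 1006 (without mouse 35) to 1737 (without mouse 45) with 1 mouse left out, and 2007 with array weights.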

Other observations

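Of 18 circadian clock genes 3 rose and 1 fell at 10 weeks, and 1 to 5 rose with 1 mouse left out. The rise with the smallest adjusted p was that of Bhlhe41, at 0.64 ± 0.13 (adjusted p 0.000616), with the ages separate. Genes that did not pass included Arntl (-0.77, with the ages separate), Per2 (0.47), Wee1 (-0.41) and Nr1d1 (0.38). The rhythmic output genes Hlf (0.42), Nfil3 (-0.37), Usp2 (-0.11) and Noct (0.04) did not pass either. Dbp, a transcription factor with a strong daily rhythm in liver, had -0.98, -1.20, -1.20, -1.27 and -1.13 in 4-week mice 31, 34, 35, 45 and 47 and -0.02, 0.15, 0.22, 0.09 and -0.57 in 10-week mice 20, 22, 23, 24 and 48, a rise of 1.13 ± 0.37 (adjusted p 0.026, and 0.0576 without mouse 23). The related Tef went from -0.29, -0.50, -0.79, -0.60 and -0.49 to 0.09, 0.19, 0.34, 0.31 and 0.04, a rise of 0.73 ± 0.22 (adjusted p 0.0168, and 0.0544 without mouse 35). Npas2, a partner of Bmal1, went from 0.05, 0.14, 0.30, 0.24 and 0.03 to -0.22, -0.56, -0.43, -0.22 and -0.06, a difference of -0.45 ± 0.16 (adjusted p 0.0373, and 0.108 with 1 mouse left out). The hour of sampling is not given in the sources used here, and its part was not tested. In Dbp and Tef the ages were separate and mice 31 and 34 did not stand apart.

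Of 22 genes of iron and heme 5 rose and 3 fell, with a median of 0.05, and 4 rose and 3 fell without mice 31 and 34. Enzymes of heme synthesis moved both ways. The falls were in the later enzymes Alad (-0.30), Urod (-0.23) and Cpox (-0.40), while Fech rose (0.38). Both genes of the first enzyme rose. Alas2, the erythroid form, went from 0.33, -0.06, -0.75, -1.10 and -0.62 to 0.48, 0.43, 0.61, 0.59 and 0.65, a rise of 0.99 ± 0.20 (adjusted p 0.000514), with the ages separate. Alas1, the form of hepatocytes, overlapped and rose by 0.999 ± 0.31 (adjusted p 0.0193, and 0.0826 without mouse 34). Of 12 erythroid markers 2 rose, Alas2 and Rhag, and 2 fell. Hamp, which encodes hepcidin, the hormone that limits iron uptake, had -0.37, -0.21, -3.80, -0.15 and -0.90 and 0.65, -1.03, 1.32, 0.69 and 0.75, and its rise of 1.56 ± 0.56 (adjusted p 0.0439) had an adjusted p of 0.244 without mouse 35.

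Among the adults, mouse 22 had acute phase transcripts well above the others. The median of 27 acute phase genes was 0.92 in mouse 22 and -0.17 to 0.02 in the other four. Lcn2, an iron-trapping defence protein, was -2.69, 0.48, -2.53, -2.70 and -2.48 at 10 weeks, high in mouse 22 and low in the others, against -1.96, -1.73, -2.15, -2.58 and -2.90 at 4 weeks. Apcs, serum amyloid P, went from 0.37, 0.62, 0.67, 0.82 and 0.39 to -0.96, 0.64, -1.30, -1.16 and -0.89 and fell in the adults other than mouse 22, with a difference over all of -1.31 ± 0.22 (adjusted p 4.34e-05). Of the 27 genes 3 rose and 1 fell. The 26 immediate early genes had no call, with medians of 0.71 and 0.70 in mice 22 and 23 and -0.25 to 0.00 in the other adults.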
